A study of Mus musculus with 4 samples.

Results

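The genes described here are 35 genes of glucose breakdown and of the response to low oxygen, out of 22609 gene symbols counted by RNA-Seq in the hippocampus after global cerebral ischemia (GCI). They were taken by symbol and fall into 17 glycolytic enzymes, 4 membrane transporters for glucose or lactate, 2 subunits of the hypoxia-inducible factor (HIF) and 12 genes that HIF is known to induce. The data were 4 libraries from ovariectomized female mice, 2 labeled FLOX+GCI and 2 labeled FBN-ARO-KO+GCI. In FBN-ARO-KO mice, Cyp19a1, the gene for the estrogen-producing enzyme aromatase, is deleted by Cre recombinase under the CaMKIIα promoter, so the deletion is limited to excitatory neurons of the forebrain and other cells keep the gene. FLOX mice are the controls. All mice were 3 to 5 months old, had been ovariectomized 1 week earlier, and had both common carotid arteries occluded for 20 min before 24 h of reperfusion, so both groups lack ovarian estrogen and both are ischemic. Sham libraries were not analysed here, and the comparison is therefore between genotypes in ischemic tissue and does not give the effect of ischemia. With 2 libraries per group, an effect of genotype cannot be told apart from other differences between these libraries. The sources used here do not say whether the libraries of a group came from separate mice, so p-values measure only the spread between these libraries.

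Glycolysis splits glucose into pyruvate in the cytosol, and lactate dehydrogenase turns pyruvate into lactate when oxygen is short or when cells export lactate to their neighbors. HIF is a pair of proteins whose alpha subunit, HIF-1α or HIF-2α, is marked for destruction by oxygen-dependent prolyl hydroxylases, so that low oxygen lets it build up and bind short DNA motifs near its targets. Many glycolytic enzymes, glucose and lactate transporters and regulators of vessel growth are HIF targets, and astrocytes and neurons use different members of these families.

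Counts on genes totaled between 24333396 and 33076795 per library, and 3 counts, taken as the smallest detectable level, corresponded to 0.0907 to 0.123 CPM, which covers counting error only. CPM are counts scaled by library size, here with TMM factors, and the libraries of each group are listed in the order replicate 1, replicate 2. Of Cyp19a1 itself, 4 and 1 reads were counted in FLOX+GCI against 2 and 2 in FBN-ARO-KO+GCI, and at this level the gene cannot check the genotype labels. The library FBN-ARO-KO+GCI replicate 2 stood apart from both FLOX+GCI libraries, with a chi-square per degree of freedom of 23.7 and 27.9, against 10.1 to 14.1 for every other pair. Transcripts richer in GC had lower log2 fold changes between genotypes (Spearman's rho -0.55 across 14032 genes, which are not independent replicates), and so had the difference between the FBN-ARO-KO+GCI libraries (-0.48), whereas rho was 0.10 between the FLOX+GCI libraries. Member values that depend on it are therefore also given with an offset, by which the trend of every library over GC content and length of transcripts was removed. For other genes, only some values are given with it.

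None of the members passed an adjusted p of 0.05 between FBN-ARO-KO+GCI and FLOX+GCI when edgeR's quasi-likelihood p was adjusted by Benjamini-Hochberg over 14527 genes, of which 2 (0.0138%) passed. Of the 34 members tested, 18 had a log2 fold change above 0 and 16 below, with a median of 0.01 against -0.01 for all genes tested. At an unadjusted p under 0.05, 6 members were higher in FBN-ARO-KO+GCI, beside 8.72% of all genes tested, and 1 was lower, beside 7.82%. The 6 higher members were P4ha1, P4ha2, Ndrg1 and Bhlhe40 among the HIF targets, the glucose transporter Slc2a3, and Pfkfb3, and the lower member was Pfkl. Both libraries of one group lay above both of the other for 10 members that were higher in FBN-ARO-KO+GCI (25.9% of all genes) and for 6 that were lower (25.8%). With library totals only, without TMM, 3 members were higher (6.63% of all genes) and 3 lower (10.1%) at this unadjusted p, and with the GC content and length offset 10 were higher (7.87% of all genes) and 1 lower (3.48%). The same scalings moved the split over all genes from 1267 higher and 1136 lower to 963 and 1471 with library totals and to 1143 and 506 with the offset. Without FBN-ARO-KO+GCI replicate 2, 3 members were higher (2.47% of all genes) and 0 lower (3.17%), and without FBN-ARO-KO+GCI replicate 1, 4 were higher (10.6%) and 2 lower (8.25%).

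DESeq2 and edgeR's likelihood ratio test each called 2 members at an adjusted p of 0.05, and both called P4ha1 and Ndrg1, which were higher in FBN-ARO-KO+GCI. DESeq2 called 3.35% of the 6240 genes with an adjusted p as higher, and the likelihood ratio test 0.957% of 14527. With 2 libraries against 2, the smallest two-sided p of an exact permutation test for one gene is 0.33, so every call rests on a spread borrowed across genes.

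**Figure D1:**
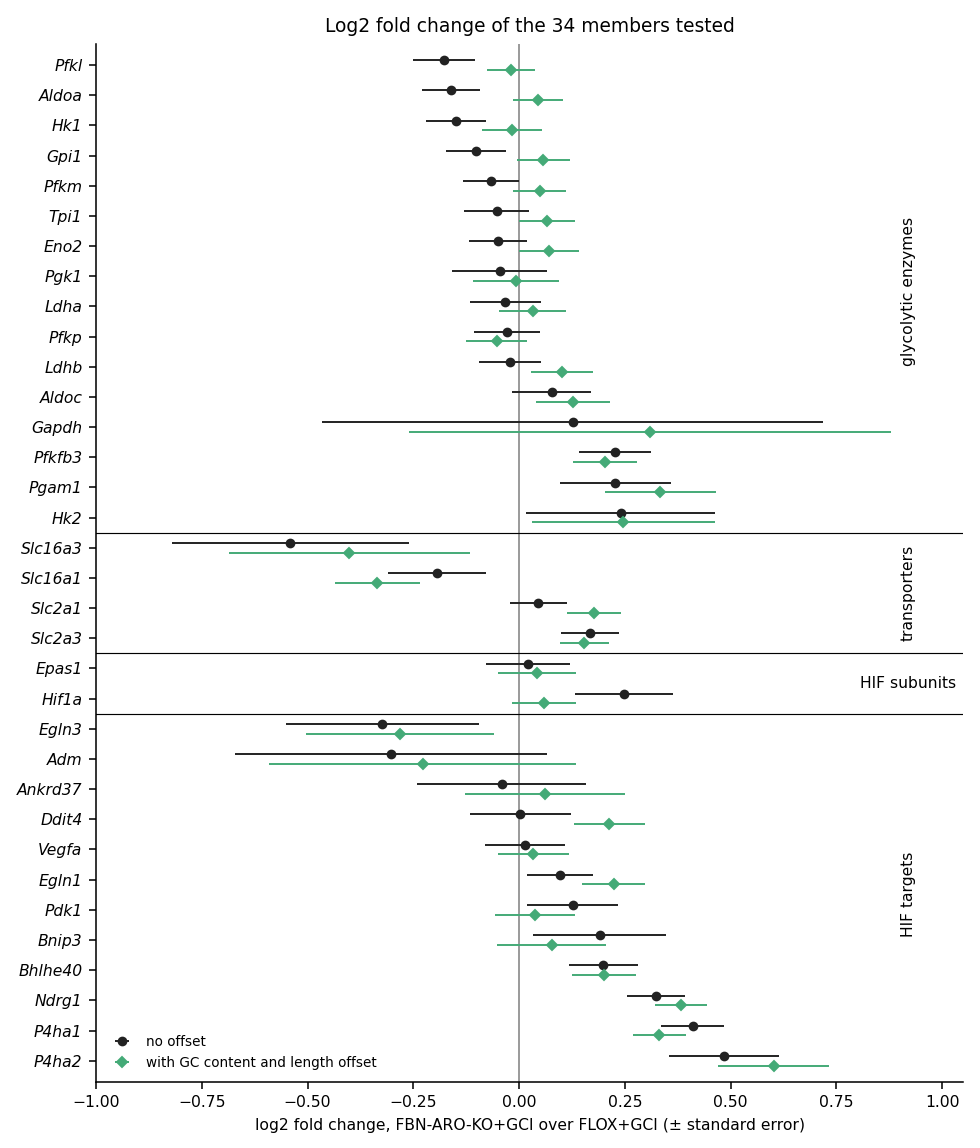
Log2 fold change (x axis, ± standard error) of the 34 members tested, grouped by role, without an offset (black circles) and with the GC content and length offset (green diamonds). P4ha2, P4ha1 and Ndrg1 are the highest HIF targets in both fits, at 0.49, 0.41 and 0.32 without the offset, whereas the GC-rich enzymes Aldoa, Gpi1 and Pfkm move from below 0 to above 0 with it.

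Before the enzymes are compared, copies elsewhere in the genome have to be set beside the counts of several of them. Reads that aligned to several places, 35.1% to 36.5% of all counted lines per library, were not assigned to a gene, and glycolytic enzymes have many processed pseudogenes. For each member, every stretch of 50 bases of the longest coding transcript, the length of a read, was searched for in the mm9 genome outside the gene's own locus. An exact copy elsewhere was found for 92.9% of the stretches of Pgk1 (phosphoglycerate kinase), 91.9% of Pgam1 (phosphoglycerate mutase), 85.6% of Gapdh (glyceraldehyde-3-phosphate dehydrogenase), 72.2% of Eno1 (the widely expressed enolase) and 61.7% of the HIF target Bnip3. Ldhb had 33.6%, Gpi1 31.4%, Ldha 29.1%, Tpi1 23.6% and Aldoa 14.8%. Thus 10 of the 35 members had over 5% of their stretches copied, 8 had fewer, and 17 had 0.

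Gapdh, usually among the most abundant transcripts of a cell, was counted only 14 and 26 times in FLOX+GCI against 44 and 12 times in FBN-ARO-KO+GCI. Eno1 was counted 0 and 0 times in FLOX+GCI and 1 and 0 times in FBN-ARO-KO+GCI, lay below the filter on low counts and was the one member not tested. Pgk1 gave 19.9 and 18.5 CPM in FLOX+GCI and 19.2 and 18.0 CPM in FBN-ARO-KO+GCI. These levels leave out reads from copied stretches, and give no order of abundance against other enzymes. Eno1, with 72.2% of its stretches copied, was counted less than Pgk1, with 92.9%. Why Gapdh and Eno1 were almost absent was not tested. With 44 counts or fewer in every library, Gapdh is of no use as a reference gene in these files.

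**Figure D2:**
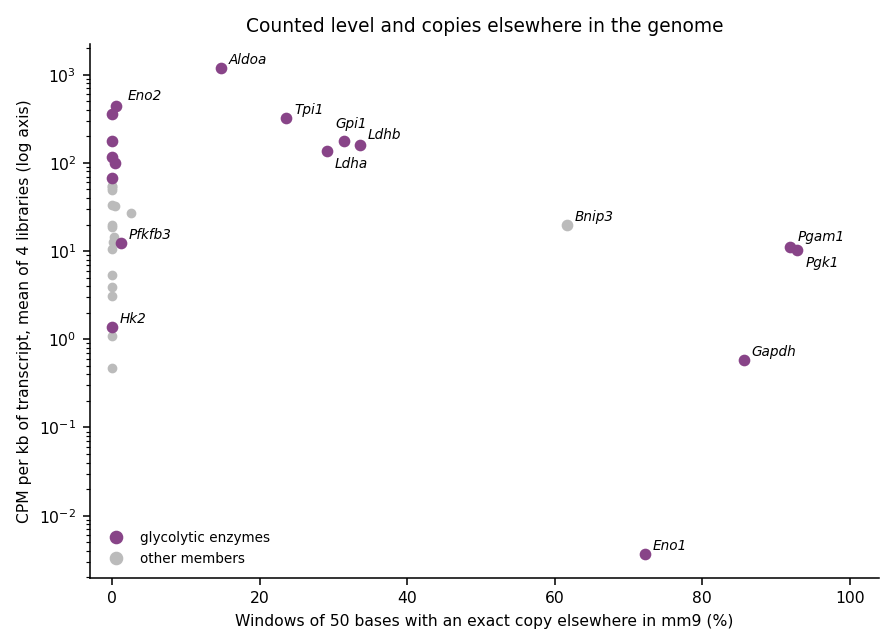
Mean level over the 4 libraries in CPM per kb of transcript (y axis, log scale) against the percentage of 50-base stretches with an exact copy elsewhere in mm9 (x axis), for the 35 members, with enzymes in purple. Pgk1, Pgam1, Gapdh and Eno1, with 72.2% to 92.9% of stretches copied, were counted at 11.1 CPM per kb or less, whereas Aldoa and Tpi1, with 14.8% and 23.6%, were at 1188 and 321 CPM per kb.

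For the enzymes with fewer copied stretches, levels were set side by side per kb of transcript, as the mean of the 4 libraries. They are levels as counted, and those of Ldhb, Gpi1, Ldha, Tpi1 and Aldoa leave out reads from copied stretches. Aldoa, the muscle-type aldolase that cleaves fructose bisphosphate, had the highest counted level, 1188 CPM per kb, and Eno2, the neuronal enolase, was at 447. Aldoc, the brain aldolase that is enriched in astrocytes, was at 358 CPM per kb and triose phosphate isomerase, Tpi1, at 321. Of the 3 phosphofructokinase genes, which encode the subunits of the main control point of the pathway, Pfkm was at 179, Pfkl at 100.2 and Pfkp at 67.9 CPM per kb. Gpi1 (glucose phosphate isomerase) was at 175, and Ldhb and Ldha, the heart-type and muscle-type lactate dehydrogenase subunits, were at 159.9 and 137. Hexokinase, which traps glucose in the cell, was almost all Hk1, at 117 CPM per kb against 1.38 for Hk2. The orders Aldoa over Aldoc, Pfkm over Pfkl over Pfkp and Hk1 over Hk2 held in each of the 4 libraries, whereas the ranges of Pfkm and Gpi1 overlapped.

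**Figure D3:**
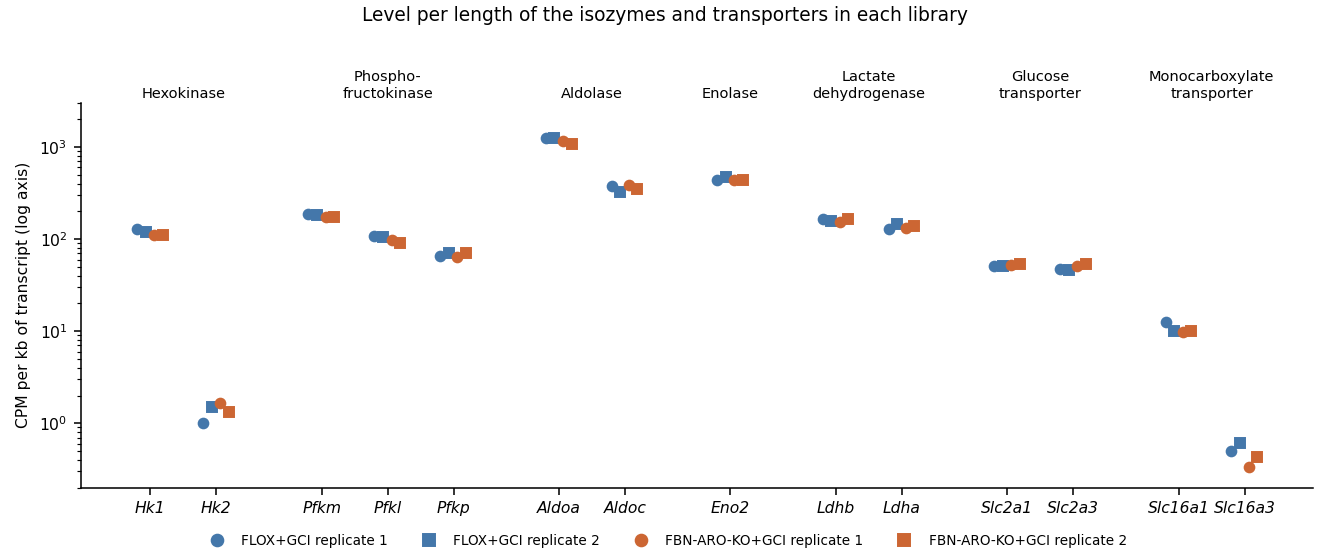
Level of isozymes and transporters in CPM per kb of transcript (y axis, log scale) in each of the 4 libraries, with FLOX+GCI in blue, FBN-ARO-KO+GCI in orange, circles for replicate 1 and squares for replicate 2. Hk1 lies between 111 and 127 and Hk2 between 1.01 and 1.65 in every library, and both genotypes share the same order of isozymes at the hexokinase, aldolase and phosphofructokinase steps.

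Of the 16 enzymes tested, 5 had a log2 fold change above 0 and 11 below, with a median of -0.04, but with the GC content and length offset 12 were above 0 and 4 below, with a median of 0.06. The offset also moved all genes, from 7069 above and 7458 below 0 to 8310 and 6217, and their median from -0.01 to 0.03. The enzymes are GC-rich transcripts, with a median of 53.3% against 50.6% for all genes with a sequence, and across the 16 enzymes Spearman's rho between GC content and log2 fold change was -0.60 without and -0.03 with the offset. The median below 0 was thus not kept when the trend of each library over GC content was removed. Gapdh, Hk2 and Eno1, the enzymes with the fewest reads, were set apart. The 95% intervals of the other 14 enzymes lay within -0.35 and 0.53 on the log2 scale, and 12 of them held 0. That of Hk2 ran from -0.28 to 0.77 and that of Gapdh from -1.26 to 1.52.

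Pfkl, the liver-type phosphofructokinase subunit, was the only enzyme lower at an unadjusted p under 0.05. Its level was 402 and 392 CPM in FLOX+GCI and 366 and 336 CPM in FBN-ARO-KO+GCI, with a log2 fold change of -0.18 ± 0.07 (SE, adjusted p = 0.291 in edgeR's quasi-likelihood test). Both knockout libraries lay below both control libraries, but with the offset the log2 fold change was -0.02.

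Pfkfb3 was the only enzyme higher at that threshold. It makes fructose-2,6-bisphosphate, the strongest activator of phosphofructokinase, and is kept low in neurons and high in astrocytes. It measured 54.7 and 61.1 CPM in FLOX+GCI and 68.0 and 67.5 CPM in FBN-ARO-KO+GCI, with a log2 fold change of 0.23 ± 0.09 (SE, adjusted p = 0.269 in edgeR's quasi-likelihood test) and 0.20 with the offset.

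Other enzymes whose groups did not overlap had smaller differences or shared sequence. Hk1 measured 544 and 509 CPM in FLOX+GCI and 473 and 476 CPM in FBN-ARO-KO+GCI (log2 fold change -0.15, and -0.02 with the offset). Aldoa measured 1921 and 1963 CPM in FLOX+GCI and 1803 and 1672 CPM in FBN-ARO-KO+GCI (-0.16, and 0.05 with the offset). These 2 are the main isozymes of their steps, and both were close to 0 with the offset. Gpi1 measured 357 and 381 CPM in FLOX+GCI and 350.4 and 338 CPM in FBN-ARO-KO+GCI (-0.10, and 0.06 with the offset), and Pfkm 535 and 523 CPM against 506 and 504 CPM (-0.07, and 0.05 with the offset). Pgam1, most of which has copies elsewhere, measured 17.1 and 20.3 CPM in FLOX+GCI and 20.5 and 23.4 CPM in FBN-ARO-KO+GCI (0.23, and 0.33 with the offset, unadjusted p = 0.0388 in edgeR's quasi-likelihood test with the offset). None of these 5 had an unadjusted p under 0.05 without the offset.

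The remaining enzymes overlapped between genotypes. Eno2, the main counted enolase, measured 1226 and 1314 CPM in FLOX+GCI and 1215 and 1241 CPM in FBN-ARO-KO+GCI. Ldhb measured 215 and 205 CPM against 201 and 213 CPM, and Ldha 229 and 259.6 CPM against 233 and 245 CPM, with log2 fold changes of -0.02 and -0.03. The balance of the lactate dehydrogenase subunits, a log2 ratio of Ldha over Ldhb, was 0.21 ± 0.18 in FLOX+GCI and 0.21 ± 0.01 in FBN-ARO-KO+GCI (SD, n = 2 each). Aldoc, Tpi1, Pfkp and Pgk1 had log2 fold changes between -0.05 and 0.08, and Hk2 and Gapdh, both with few reads, had 0.24 ± 0.22 and 0.13 ± 0.59 (SE).

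Ratios of isozymes within a library do not depend on how libraries are scaled, and 11 pairs were compared. Since the smallest two-sided p of the exact permutation test was 0.33, and 0.733 after Benjamini-Hochberg adjustment over the 11 pairs, none could pass, and the values are descriptions. Groups did not overlap for 3 pairs. The log2 ratio of Aldoc over Aldoa was -0.88 and -1.13 in FLOX+GCI against -0.75 and -0.78 in FBN-ARO-KO+GCI, a difference of 0.24 that was 0.09 with the offset. That of Pfkl over Pfkm was -0.41 and -0.42 in FLOX+GCI against -0.47 and -0.58 in FBN-ARO-KO+GCI, a difference of -0.11, and -0.07 with the offset. That of Slc2a1 over Slc2a3 was -0.49 and -0.45 against -0.56 and -0.62, a difference of -0.12 that turned to 0.02 with the offset.

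The transporters carry glucose into cells and lactate across membranes. Slc2a1 (GLUT1, the transporter of the blood-brain barrier and astrocytes) and Slc2a3 (GLUT3, the neuronal transporter) were at like levels per length, 52.2 and 49.7 CPM per kb, with overlapping ranges over the libraries. Slc2a3 measured 186 and 185 CPM in FLOX+GCI and 203 and 213 CPM in FBN-ARO-KO+GCI, with a log2 fold change of 0.17 ± 0.07 (SE, adjusted p = 0.289 in edgeR's quasi-likelihood test) and 0.15 with the offset. Both knockout libraries lay above both controls. Slc2a1 measured 133 and 135 CPM in FLOX+GCI and 138 and 138 CPM in FBN-ARO-KO+GCI, with a log2 fold change of 0.05, and 0.18 with the offset (unadjusted p = 0.0267 in the same test).

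For lactate, Slc16a1 (MCT1, of endothelium, astrocytes and oligodendrocytes) measured 55.6 and 44.6 CPM in FLOX+GCI and 42.9 and 44.8 CPM in FBN-ARO-KO+GCI. FLOX+GCI replicate 1 was the high one, and the other 3 libraries lay close together. The log2 fold change was -0.19 ± 0.12 (SE), and -0.33 with the offset (unadjusted p = 0.0121 in edgeR's quasi-likelihood test), the only member lower at p under 0.05 in that fit. Without the offset, it was -0.02 when FLOX+GCI replicate 1 was left out, and no fit combined both. Slc16a3 (MCT4, the lactate exporter of astrocytes) was near the low end of detection, with 2.16 and 2.68 CPM in FLOX+GCI and 1.45 and 1.88 CPM in FBN-ARO-KO+GCI (-0.54 ± 0.28, adjusted p = 0.366 in edgeR's quasi-likelihood test), and its exons overlap Csnk1d on the opposite strand. With the strand setting of the counting not given in the sources used here, reads from overlapping genes cannot be told apart. The same holds for Hk1, Gpi1, Pfkp, Tpi1, Slc2a1, Hif1a, Ankrd37, Ndrg1 and Bhlhe40.

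Of the HIF subunits, which in most cells are controlled at the level of the protein, Hif1a (HIF-1α) measured 83.6 and 79.6 CPM in FLOX+GCI and 85.5 and 108 CPM in FBN-ARO-KO+GCI. Only FBN-ARO-KO+GCI replicate 2, the library that stood apart, was well above the rest. The log2 fold change was 0.25 ± 0.12 (SE, adjusted p = 0.331 in edgeR's quasi-likelihood test), 0.07 without that library and 0.06 with the offset. Hif1a was the member with the lowest GC content, 41.3%. Epas1 (HIF-2α, high in endothelium and astrocytes) measured 184 and 157 CPM in FLOX+GCI and 183 and 163 CPM in FBN-ARO-KO+GCI, with a log2 fold change of 0.02 ± 0.10 (SE). Replicate 1 was the higher library in both genotypes, as for the 4 endothelial markers Cldn5, Pecam1, Slco1a4 and Tek, which summed to 153 and 102.5 CPM in FLOX+GCI and 129 and 86.8 CPM in FBN-ARO-KO+GCI. The part of endothelial cells in the level of Epas1 was not tested, and in bulk tissue fewer cells of a type and less RNA per cell cannot be told apart.

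Of the 12 HIF targets, 9 had a log2 fold change above 0 and 3 below, with a median of 0.11. At an unadjusted p under 0.05, 4 were higher, beside 8.72% of all genes tested, and 0 were lower, beside 7.82%. With library totals only, 7 were above 0 and the median was 0.08, and with the offset 10 were above 0 and the median was 0.14. The 5 targets whose groups did not overlap, P4ha1, P4ha2, Ndrg1, Bhlhe40 and Egln1, were all higher in FBN-ARO-KO+GCI. Of all genes tested, 25.9% were higher without overlap and 25.8% were lower.

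**Figure D4:**
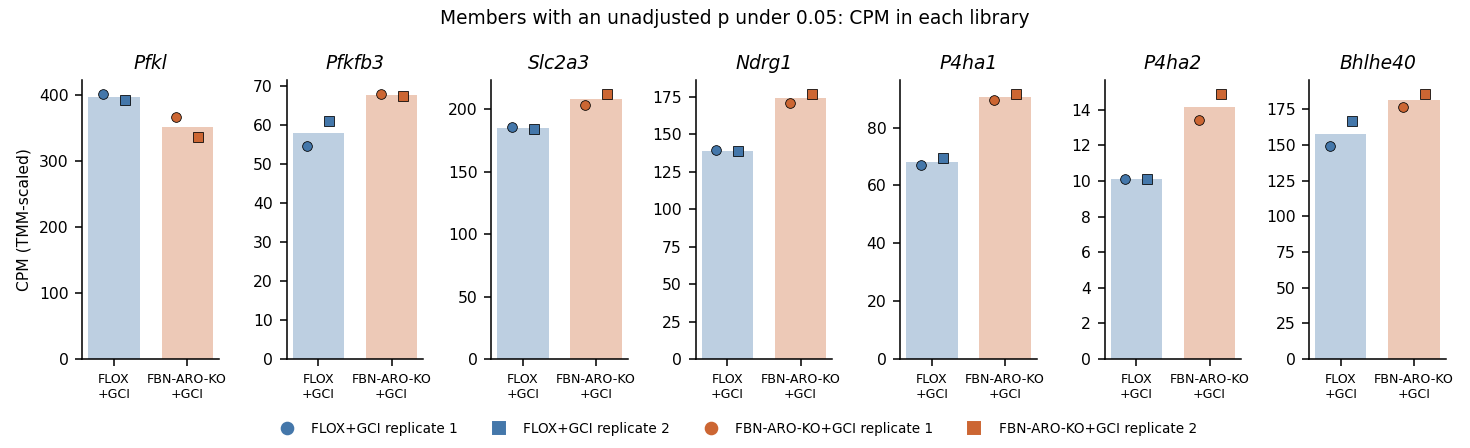
TMM-scaled CPM (y axis, from 0) in each library of the 7 members with an unadjusted p under 0.05, with bars at the group means, circles for replicate 1 and squares for replicate 2. In P4ha1, P4ha2 and Ndrg1 both FBN-ARO-KO+GCI libraries lie above both FLOX+GCI libraries by more than the spread within either group, and Pfkl is the one member that is lower.

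P4ha1 and P4ha2 encode the alternative catalytic subunits of the collagen prolyl 4-hydroxylase, the enzyme of the endoplasmic reticulum that hydroxylates proline in collagen so that its triple helix is stable. P4ha1, on chromosome 10 of mm9 from 58786044 to 58836052, measured 66.9 and 69.5 CPM in FLOX+GCI and 89.5 and 91.8 CPM in FBN-ARO-KO+GCI. P4ha2, on chromosome 11 from 53913597 to 53945167, measured 10.1 and 10.1 CPM in FLOX+GCI and 13.4 and 14.9 CPM in FBN-ARO-KO+GCI. Both genes were higher in both knockout libraries, by 1.33 and 1.40 times, and neither shares sequence of read length with another place in the genome. The log2 fold change of P4ha1 was 0.41 ± 0.07 (SE, unadjusted p = 0.000765, adjusted p = 0.238 in edgeR's quasi-likelihood test), 0.33 with the offset, and between 0.38 and 0.43 when each library was left out in turn. Its adjusted p was 0.00871 in DESeq2 and 0.00354 in edgeR's likelihood ratio test, and over all alternatives lay between 0.00354 and 0.815, the highest without FBN-ARO-KO+GCI replicate 2.

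P4ha2 had a log2 fold change of 0.49 ± 0.13 (SE, adjusted p = 0.238 in edgeR's quasi-likelihood test), 0.60 with the offset, and between 0.41 and 0.56 with each library left out. Over the alternatives its adjusted p lay between 0.101 and 0.844, and DESeq2 gave none. The log2 ratio of P4ha2 over P4ha1 was -2.74 ± 0.04 in FLOX+GCI and -2.67 ± 0.08 in FBN-ARO-KO+GCI (SD, n = 2 each), with overlapping groups. Per length, P4ha1 was at 19.6 and P4ha2 at 5.37 CPM per kb. The beta subunit P4hb, which is also protein disulfide isomerase and is named here after its values were seen, measured 147 and 150.0 CPM in FLOX+GCI and 145 and 139 CPM in FBN-ARO-KO+GCI, with a log2 fold change of -0.07 ± 0.07 (SE). The third alpha subunit gene, P4ha3, also named after its values were seen, measured 2.00 and 4.26 CPM against 2.72 and 2.49 CPM, with overlapping groups.

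HIF binds the letters ACGTG or GCGTG, the core of the hypoxia response element. Promoters of 3 members that were higher at an unadjusted p under 0.05 are shown. These letters are in capitals on either strand (CACGT and CACGC are the reverse complements). The windows hold the 300 bases around an annotated start site, of which the last 50 lie past it, come from RefSeq and have GRCm38.p6 coordinates, a later build than that of the counts. P4ha1 and P4ha2 are shown because both were higher in FBN-ARO-KO+GCI, and Pfkfb3, with its start sites, as the one enzyme that was. The P4ha1 window, chr10:59323046-59323345 on the plus strand, holds 3 matches, and the P4ha2 window, chr11:54100674-54100973 on the plus strand, holds 4. The Pfkfb3 windows are chr2:11553880-11554179 and chr2:11502041-11502340 on the minus strand, with 1 and 4 matches, where the run CACGTG counts as 2 because it reads ACGTG on each strand.
P4ha1: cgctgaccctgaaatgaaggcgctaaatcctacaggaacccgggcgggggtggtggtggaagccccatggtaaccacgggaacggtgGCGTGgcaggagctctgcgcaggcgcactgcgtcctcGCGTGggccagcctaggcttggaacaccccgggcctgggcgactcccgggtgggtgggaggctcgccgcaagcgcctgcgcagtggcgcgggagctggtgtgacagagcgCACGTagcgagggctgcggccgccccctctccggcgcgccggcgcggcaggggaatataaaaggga
P4ha2: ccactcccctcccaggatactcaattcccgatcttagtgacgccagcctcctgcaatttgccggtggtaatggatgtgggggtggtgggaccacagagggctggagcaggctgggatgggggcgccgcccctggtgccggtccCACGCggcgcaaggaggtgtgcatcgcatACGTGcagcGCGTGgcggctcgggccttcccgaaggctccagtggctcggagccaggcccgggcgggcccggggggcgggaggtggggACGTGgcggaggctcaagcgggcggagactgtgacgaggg
Pfkfb3, first window: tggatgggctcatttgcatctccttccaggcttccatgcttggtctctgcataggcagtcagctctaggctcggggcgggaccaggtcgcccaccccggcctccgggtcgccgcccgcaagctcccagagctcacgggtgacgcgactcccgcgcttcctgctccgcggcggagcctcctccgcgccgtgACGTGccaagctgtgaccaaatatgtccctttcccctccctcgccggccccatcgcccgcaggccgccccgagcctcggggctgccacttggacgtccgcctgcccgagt
Pfkfb3, second window: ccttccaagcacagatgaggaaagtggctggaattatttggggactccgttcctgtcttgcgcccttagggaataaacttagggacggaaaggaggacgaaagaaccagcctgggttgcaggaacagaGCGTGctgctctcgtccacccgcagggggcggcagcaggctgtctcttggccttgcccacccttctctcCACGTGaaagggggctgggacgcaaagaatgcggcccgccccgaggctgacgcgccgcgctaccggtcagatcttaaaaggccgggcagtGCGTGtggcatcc

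In RefSeq, 31 of the 35 members had such windows, 44 in all, some of which overlap. A match to ACGTG or GCGTG on either strand was found in 36 of the 44 windows, or 81.8% (Wilson 95% interval 68.0% to 90.5%, which treats overlapping windows as separate), against 43.8% of all 32851 windows and 60.0% of the 13194 windows of genes tested here. The member windows were slightly richer in GC, with a median of 62.8% against 60.7% for the genes tested and 52.7% for all windows. Pfkl, the enzyme that was lower, holds 1 match, so the letters occur beside members that were higher, lower or overlapping. Ndrg1, Bhlhe40, Slc2a3 and Epas1 were not matched. A match is a stretch of letters and not a bound site. Since many members were listed as known HIF targets, a share above that of other genes can follow from how they were chosen.

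Ndrg1, a stress-responsive cytosolic protein that is abundant in myelinating cells and needed for myelin upkeep in peripheral nerve, measured 139 and 139 CPM in FLOX+GCI and 171 and 177 CPM in FBN-ARO-KO+GCI. It lies on chromosome 15 of mm9 from 66760883 to 66801202. Both knockout libraries were above both controls, 1.25 times on average. The log2 fold change was 0.32 ± 0.07 (SE, adjusted p = 0.238 in edgeR's quasi-likelihood test), 0.38 with the offset and between 0.30 and 0.35 with each library left out. Its adjusted p was 0.0178 in DESeq2 and 0.0202 in edgeR's likelihood ratio test, and lay between 0.0178 and 0.844 over all alternatives. Of 4 oligodendrocyte markers, Mobp measured 161 and 203 CPM in FLOX+GCI against 229.6 and 214 CPM in FBN-ARO-KO+GCI, with no overlap. Mbp (2097 and 2544 CPM against 2521 and 2356 CPM), Mag (146 and 158 CPM against 148 and 155 CPM) and Mog (48.8 and 48.7 CPM against 43.4 and 54.6 CPM) overlapped between genotypes, and the part of oligodendrocytes in the level of Ndrg1 was not tested.

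Bhlhe40 (DEC1), a transcriptional repressor that also acts in the circadian clock, measured 149 and 167 CPM in FLOX+GCI and 176 and 186 CPM in FBN-ARO-KO+GCI. The log2 fold change was 0.20 ± 0.08 (SE, adjusted p = 0.289 in edgeR's quasi-likelihood test), and 0.20 with the offset. Egln1 (PHD2), the main oxygen-dependent hydroxylase that marks HIF-1α, measured 95.4 and 86.7 CPM in FLOX+GCI and 97.2 and 97.6 CPM in FBN-ARO-KO+GCI, with a log2 fold change of 0.10 ± 0.08 (SE), and 0.22 with the offset. The groups of Egln1 were separated by less than the spread within FLOX+GCI. With the offset, 6 HIF targets were higher at an unadjusted p under 0.05, beside 7.87% of all genes tested. These targets were the 4 above together with Egln1 and Ddit4.

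The other 7 HIF targets overlapped between genotypes. Vegfa, the growth factor of vessels and a standard HIF target, measured 47.6 and 52.8 CPM in FLOX+GCI and 53.0 and 48.2 CPM in FBN-ARO-KO+GCI, with a log2 fold change of 0.01 ± 0.09 (SE). Pdk1, which switches pyruvate dehydrogenase off, measured 59.4 and 67.5 CPM against 63.7 and 75.0 CPM. Ddit4 (REDD1), an inhibitor of mTOR complex 1 that glucocorticoids also induce, measured 54.7 and 58.5 CPM against 63.3 and 50.1 CPM, with a log2 fold change of 0.00 and of 0.21 with the offset. The highest and the lowest Ddit4 library were both from FBN-ARO-KO+GCI. Bnip3, a mitophagy receptor with most of its stretches copied elsewhere, measured 36.8 and 27.4 CPM against 33.2 and 40.1 CPM.

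Egln3 (PHD3) measured 7.10 and 11.2 CPM in FLOX+GCI and 7.81 and 6.76 CPM in FBN-ARO-KO+GCI, and Adm (the vasodilator peptide adrenomedullin) 1.16 and 2.15 CPM against 1.48 and 1.20 CPM. FLOX+GCI replicate 2 was the highest library for both, and without it their log2 fold changes of -0.32 and -0.30 became 0.04 and 0.21. Ankrd37 measured between 3.53 and 3.91 CPM in all libraries. The 95% intervals of these 7 targets each held 0, and differed in width from -0.21 to 0.24 for Vegfa to -1.17 to 0.56 for Adm on the log2 scale. Over the 12 targets, FBN-ARO-KO+GCI replicate 2 was the highest library for 7.

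**Figure D5:**
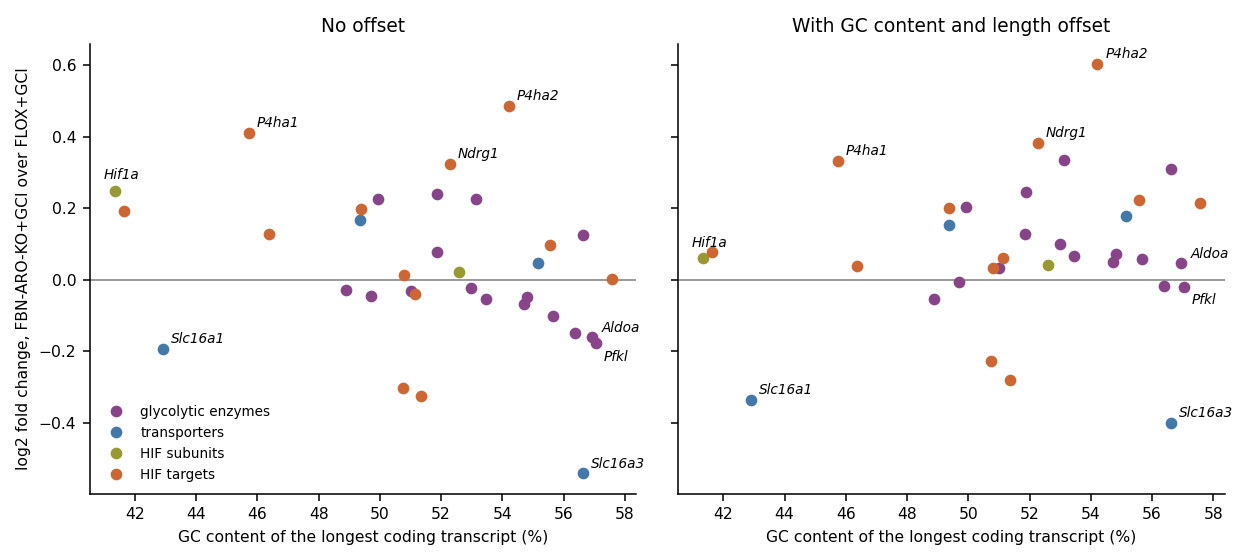
Log2 fold change (y axis) of the 34 members tested against the GC content of their longest coding transcript (x axis, %), without (left) and with (right) the GC content and length offset, colored by role. Spearman's rho over the 34 members was -0.35 without and 0.10 with the offset, and P4ha2 is the highest member on both sides, at 0.49 and 0.60.

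The rest of each pathway was read from lists of genes that are not members. Of 19 further glycolysis genes, 15 were tested. At an unadjusted p under 0.05, 0 were higher, beside 8.72% of all genes tested, and 3 were lower, beside 7.82%. Among them were Pgam2, the muscle-type phosphoglycerate mutase (log2 fold change -0.79 ± 0.23, SE), and Hkdc1 (-0.69 ± 0.28), both below 14 CPM in every library. Gapdhs and Pgk2, made in the testis, were listed at 0 in every library, and Pklr and Ldhc were below the filter. Pkm, the pyruvate kinase of brain, listed under its older symbol and named here after its values were seen, measured 679 and 694 CPM in FLOX+GCI and 664 and 666 CPM in FBN-ARO-KO+GCI, with a log2 fold change of -0.04 ± 0.06 (SE).

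Of 17 genes that handle pyruvate and lactate, 16 were tested. At an unadjusted p under 0.05, 1 was higher, beside 8.72% of all genes tested, and 4 were lower, beside 7.82%. Pdp1, the phosphatase that switches pyruvate dehydrogenase on, measured 64.9 and 69.7 CPM in FLOX+GCI and 80.5 and 91.3 CPM in FBN-ARO-KO+GCI (log2 fold change 0.35 ± 0.09, SE). Bsg (basigin, the chaperone of the lactate transporters) was lower, at 465 and 427 CPM against 394 and 381 CPM (-0.20 ± 0.07, SE). Slc2a8 (-0.32 ± 0.13) and Mpc1, a subunit of the mitochondrial pyruvate carrier listed as Brp44l (-0.46 ± 0.19), were lower too, and the fourth lower gene, Slc2a4, named after its values were seen, had 3.39 CPM or less in every library. With the offset, Mpc1 alone was under that threshold, beside 3.48% of all genes that were lower and 7.87% that were higher. The log2 fold changes with the offset were 0.04 (Bsg), -0.04 (Slc2a8), 0.13 (Pdp1), -0.51 (Mpc1) and -1.04 (Slc2a4).

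Of 33 further genes of HIF regulation and response, 32 were tested. At an unadjusted p under 0.05, 5 were higher, beside 8.72% of all genes tested, and 2 were lower, beside 7.82%. Hmox1 (heme oxygenase, which NRF2 also induces) measured 7.86 and 14.6 CPM in FLOX+GCI and 5.13 and 5.84 CPM in FBN-ARO-KO+GCI (-1.03 ± 0.28, SE), and Ier3 was also lower (-0.52 ± 0.19). Hif1an (FIH, the asparagine hydroxylase that blocks the HIF activation domain) was higher at 58.7 and 61.9 CPM against 68.3 and 75.2 CPM (0.25 ± 0.09, SE). Ak4 (0.24 ± 0.09), a mitochondrial adenylate kinase, was higher as well. None of the tested genes in these 3 lists passed an adjusted p of 0.05 in edgeR's quasi-likelihood test (smallest 0.238, 15 at an unadjusted p under 0.05). DESeq2 called 1, Pdp1, and the likelihood ratio test 1, Hmox1. Pgam2 and Hkdc1 were highest in FLOX+GCI replicate 2, at 13.9 and 7.18 CPM against 9.26 and 4.15 CPM in replicate 1. Hmox1 was highest in that library too, so a fit without FLOX+GCI replicate 1 rests on the high library alone. Without FLOX+GCI replicate 2, 1 further HIF gene passed, Hif3a, which is named after its values were seen. Epo, the erythropoietin gene and a standard HIF target, had at most 1 count in any library.

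The labeled tissue was read from markers of its cell types. Markers of neurons summed to 11274 and 11145 CPM in FLOX+GCI and 11474 and 12076 CPM in FBN-ARO-KO+GCI, and none of the 5 was at 0. Single neuron markers went both ways, with Snap25 and Camk2a higher and Rbfox3 and Slc17a7 lower in FBN-ARO-KO+GCI, each without overlap. Of all genes tested, 25.9% were higher without overlap and 25.8% were lower. With the offset, the log2 fold changes of Rbfox3 and Slc17a7 turned from -0.17 and -0.14 to 0.03 and 0.07. Those of Snap25 and Camk2a were 0.11 and 0.09 with the offset. Some marker sums differed between genotypes without overlap, and their part in the members' values was not tested. The dentate granule markers Prox1 and Dsp summed to 114 and 105 CPM in FLOX+GCI and 136 and 136 CPM in FBN-ARO-KO+GCI. The log2 ratio of these sums was 0.31, and the log2 fold changes of Prox1 and Dsp were 0.19 and 0.42. The CA1 markers Wfs1 and Fibcd1 summed to 413 and 406 CPM against 400.3 and 389.9 CPM, but Fibcd1 alone overlapped between genotypes. With the offset, the log2 fold change of Wfs1 went from -0.16 to 0.004 and that of Fibcd1 from 0.03 to 0.22. Sums of astrocyte markers (5 genes, 3948 and 4305 CPM against 4161 and 4828 CPM) and microglial markers (4 genes, 237 and 220 CPM against 219 and 253 CPM) overlapped between genotypes. Slc1a2, the largest part of the astrocyte sum, was higher without overlap (3151 and 2988 CPM against 3280 and 3800 CPM). Aldh1l1 was lower without overlap (59.5 and 65.2 CPM against 49.7 and 51.5 CPM), and the other astrocyte markers overlapped. Sums for 3 mural markers (71.2 and 56.8 CPM against 56.6 and 48.4 CPM) and 4 choroid plexus markers (61.1 and 49.6 CPM against 42.3 and 49.2 CPM) were lower in FBN-ARO-KO+GCI. Among the choroid plexus markers Ttr was lower (26.5 and 21.9 CPM against 8.93 and 15.6 CPM), whereas Kl, Clic6 and Folr1 had log2 fold changes of 0.09, 0.24 and 0.20. Of the 3 erythroid markers, Hba-a1 and Hbb-b1 were listed at 0, and Alas2 was between 1.84 and 4.15 CPM. Reads aligned to several places were not counted, and copies elsewhere were searched for members only. The values of 0 therefore do not show that RNA of Hba-a1 and Hbb-b1 was absent.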

How the data were processed

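Hippocampal RNA was sequenced as 50 nt single-end reads. The authors aligned reads to mm9 with TopHat2 2.0.8b, counted them per gene symbol with HTSeq and deposited raw counts without normalization, per the submitters' processing notes. The HTSeq version, strand setting and annotation release are not given in the sources used here, and reads aligned to several places were not counted. Lines for unassigned reads were left out: 7.96% to 8.70% of all counted lines were outside genes and 0.265% to 0.283% ambiguous. Columns with the authors' own comparisons were not part of the files used.

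Genes kept by filterByExpr (minimum count 10) entered edgeR's quasi-likelihood test (version 4.0.16, R 4.3.3) with all 4 libraries, TMM factors of 0.973 to 1.01 and no covariate, and p-values were adjusted by Benjamini-Hochberg with a threshold of 0.05. Standard errors are the size of the log2 fold change over the square root of F. Library groups and numbers come from the titles. Log2 CPM for ratios used a prior count of 2. Alternatives were DESeq2 1.42.0, RLE size factors, library totals only, the likelihood ratio test, a looser filter (1 count or more in all), a stricter one (a mean of 50 counts or more), the replicate number as a block, an offset for GC content and length (natural splines with 5 degrees of freedom), both together, and fits without one library. For ratios, a prior count of 0.5 and the offset were tried, and for promoters only the genes tested. The procedure was tested on simulated counts.

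Positions, transcript length and GC content come from GENCODE M1 of NCBIM37, the mm9 build, where 20335 symbols had a coding transcript and the longest was used. Members, pathway lists and marker lists were chosen with earlier results of these data known. Every member is accounted for, with values per library for those with an unadjusted p under 0.05, those whose groups did not overlap and the main isozymes. Of each further pathway list, up to 4 genes with the smallest p could be named. Promoters are shown for targets or enzymes with a window that were higher at an unadjusted p under 0.05. That of Pfkl, which was lower, is not shown. Of the pathway and marker lists, 2 genes are not reported here.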

Additional observations from a re-analysis of the deposited data

How the results depend on the processing

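For single members under an alternative, 383 values kept their direction and side of the threshold, 4 passed only in the alternative (P4ha1 and Ndrg1 in DESeq2 and in the likelihood ratio test) and 44 changed sign. No cause of these changes was tested. Genes past an adjusted p of 0.05 were 2, against 294 in the likelihood ratio test, 287 in DESeq2, 184 with a replicate block, 1 when that block was joined to the GC content and length offset, 5 with every gene of at least 1 count, and 0 to 193 with a library left out (193 without FLOX+GCI replicate 1, 127 without FLOX+GCI replicate 2). Members past it were 0, against 2 in DESeq2 and 2 in the likelihood ratio test. Members higher at an unadjusted p under 0.05 were 6, against 3 with library totals and 10 with the offset, and 3 to 7 with a library left out. The 1 lower member became 3 with library totals, 2 in DESeq2, 2 with a mean of at least 50 counts, 0 in the likelihood ratio test, 0 with the block and 0 to 2 with a library left out. Further glycolysis genes (3) were 1 in DESeq2 and 1 to 3 with a library left out, pyruvate and lactate genes (5) 1 with the offset, 3 with offset and block and 1 to 6, and further HIF genes (7) 4 with library totals and 1 to 8. The median of the enzymes was 0.062 with the offset, 0.063 with offset and block, and -0.091 to -0.017 with a library left out. That of the transporters was -0.15 to 0.0067, and that of all members -0.026 with library totals, 0.064 with the offset and 0.065 with offset and block.

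With the offset, and with offset and block, members that had been below 0 were at 0.057 and 0.058 (Gpi1), 0.049 and 0.048 (Pfkm), 0.046 and 0.046 (Aldoa), 0.067 and 0.068 (Tpi1), 0.071 and 0.071 (Eno2), 0.032 and 0.034 (Ldha), 0.10 and 0.10 (Ldhb) and 0.061 and 0.062 (Ankrd37). With library totals, Epas1 was at -0.013, Vegfa at -0.021 and Ddit4 at -0.030, and Ddit4 was also at -0.0022 with a mean of at least 50 counts and -0.0055 with the replicate block. With a library left out, the ranges that cross 0 were -0.019 to 0.56 for Hk2, -0.087 to 0.029 for Pfkp, -0.033 to 0.19 for Aldoc, -0.12 to 0.018 for Tpi1, -0.97 to 0.72 for Gapdh, -0.10 to 0.0069 for Pgk1, -0.12 to 0.059 for Ldha, -0.065 to 0.019 for Ldhb, -0.092 to 0.14 for Epas1, -0.060 to 0.088 for Vegfa, -0.0083 to 0.42 for Bnip3, -0.68 to 0.21 for Adm, -0.12 to 0.037 for Ankrd37, -0.61 to 0.035 for Egln3 and -0.18 to 0.16 for Ddit4. With the offset, the ratio of Pfkp over Pfkm turned from 0.04 to -0.10 and that of Slc2a1 over Slc2a3 from -0.12 to 0.022. Over the genes tested only, the share of promoters with a match was 60.0% instead of 43.8%. The replicate numbers come from the titles alone, and deviations of same-numbered libraries correlated at 0.13 (0.15 with the GC trend removed), which with 2 pairs does not show a pairing. The block changed no member's side of the adjusted threshold, and 1 further HIF gene, Hmox1, passed it.

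Few counts limit Hk2, Slc16a3, Adm, Gapdh and Eno1, the last 2 with most stretches copied elsewhere, and 9 members had no adjusted p in DESeq2. Leaving out a library leaves 1 arm with a single library, which is assumed to vary like the other arm.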
